A study of Mus musculus with 12 samples.

Results

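Chemokines and their receptors were followed in the kidney transcriptome as every gene named Ccl, Cxcl, Cx3cl1 or Xcl1 (ligands) and Ccr, Cxcr, Cx3cr1, Xcr1 or Ackr1 to Ackr4 (receptors), leaving out symbols annotated as pseudogenes. This rule took 59 of 35275 genes, 37 ligands and 22 receptors, and set 3 matching symbols aside, among them Cxcl11, which the annotation of the table lists as a polymorphic pseudogene. The values came from poly(A) RNA of kidney tissue of 12 C57BL/6J mice at 6 months of age, 4 per group, and each group held both females and males. WT mice carried neither mutation. RC/RC mice (Pkd1RC/RC) were homozygous for a hypomorphic knock-in allele of Pkd1, the gene of polycystin-1, which gives a slowly progressive polycystic kidney disease. RC/RC:Casp1KO mice carried the same Pkd1 allele and, in all their cells, a homozygous deletion in Casp1, the gene of the inflammasome protease Caspase-1, bred from 1 TALEN-made mutation. Within each group the mice are called A to D, in the order of the animal numbers in the table, and lists of values follow that order. The column names of the table do not give the sex of a mouse, and it was not read from sex-linked transcripts. Females and males were therefore analyzed together, and an effect that differs between the sexes would be averaged over them. Between 18019819 and 24869454 reads per mouse were counted on genes.

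Chemokines are small proteins that bind G protein-coupled receptors on leukocytes and steer their migration along gradients, and most are secreted and held on matrix. Inflammatory chemokines are induced at sites of injury, homeostatic ones place lymphocytes and dendritic cells in tissue and lymph node, and atypical receptors bind chemokines without G protein signaling and clear or store them. In the kidney, tubular epithelium, fibroblasts, endothelium and resident macrophages can all produce them, and the Ccl2-Ccr2 axis is known for bringing monocytes into injured and cystic kidneys.

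The genotype labels were first read against the genes they name. Casp1 stood at 2.05, 1.28, 1.31 and 1.41 reads scaled to library size as CPM in the 4 WT mice, 3.33, 3.87, 4.24 and 2.62 in RC/RC and 0.665, 0.382, 1.06 and 0.667 in RC/RC:Casp1KO. Every RC/RC:Casp1KO mouse lay below every WT and RC/RC mouse, and the difference from RC/RC was -2.35 ± 0.32 (log2 fold change ± SE; adjusted p = 0.00514, from the quasi-likelihood test of edgeR, Benjamini-Hochberg adjusted over all genes). The counts cover the whole gene and do not show the deleted stretch itself. Pkd1, whose RC allele changes its protein, did not differ between RC/RC and WT beyond the spread between mice (0.06 ± 0.20; adjusted p = 0.878 in the same test). The proximal tubule phosphate transporter Slc34a1 averaged 4833 CPM over the 12 mice, and other epithelial markers of the nephron were present in every mouse.

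Before any values by group, the promoters of 5 ligands are shown, because Cxcl1, Cxcl2 and Cxcl3 are neighbours with a shared motif and unlike values, Cxcl10 holds the most matches, and Cxcl14 passed the test in 2 comparisons. Promoter windows were found by symbol in RefSeq's table for 44 of the 59 genes (51 windows, GRCm38.p6, the assembly that mm10 is made from), and the 250 bases before the start are printed 5′ to 3′ on the strand of the gene. Capitals mark matches, on either strand, to the NF-kB consensus, AP-1 (TGANTCA), the interferon-stimulated response element ISRE and the gamma-activated site GAS (TTCNNNGAA). Cxcl1, Cxcl2 and Cxcl3 lie on the plus strand of chromosome 5 at chr5:90890995-90891244, chr5:90903649-90903898 and chr5:90785851-90786100, and each holds 1 NF-kB stretch. Cxcl10, on the minus strand at chr5:92348890-92349139, holds an ISRE, 2 NF-kB stretches and an AP-1 match. Cxcl14, on the minus strand at chr13:56296552-56296801, holds a GAS and an ISRE match.
Cxcl1: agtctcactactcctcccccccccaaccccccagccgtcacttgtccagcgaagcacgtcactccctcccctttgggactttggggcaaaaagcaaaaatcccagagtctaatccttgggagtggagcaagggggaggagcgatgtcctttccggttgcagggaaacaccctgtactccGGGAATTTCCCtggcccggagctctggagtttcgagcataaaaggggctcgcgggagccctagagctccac
Cxcl2: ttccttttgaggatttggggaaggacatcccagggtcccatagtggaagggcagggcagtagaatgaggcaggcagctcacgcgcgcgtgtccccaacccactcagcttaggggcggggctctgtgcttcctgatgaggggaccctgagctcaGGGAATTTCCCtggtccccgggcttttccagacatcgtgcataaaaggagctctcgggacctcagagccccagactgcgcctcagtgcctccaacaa
Cxcl3: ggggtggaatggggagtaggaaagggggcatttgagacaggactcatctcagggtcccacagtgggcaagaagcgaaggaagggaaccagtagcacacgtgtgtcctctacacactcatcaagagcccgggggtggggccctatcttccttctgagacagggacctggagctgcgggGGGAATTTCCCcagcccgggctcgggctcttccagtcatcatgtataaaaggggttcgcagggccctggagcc
Cxcl10: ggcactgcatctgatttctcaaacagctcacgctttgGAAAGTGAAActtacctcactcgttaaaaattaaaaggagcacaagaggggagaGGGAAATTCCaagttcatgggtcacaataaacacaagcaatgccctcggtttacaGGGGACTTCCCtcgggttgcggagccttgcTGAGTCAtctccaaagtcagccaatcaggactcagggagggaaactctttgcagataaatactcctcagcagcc
Cxcl14: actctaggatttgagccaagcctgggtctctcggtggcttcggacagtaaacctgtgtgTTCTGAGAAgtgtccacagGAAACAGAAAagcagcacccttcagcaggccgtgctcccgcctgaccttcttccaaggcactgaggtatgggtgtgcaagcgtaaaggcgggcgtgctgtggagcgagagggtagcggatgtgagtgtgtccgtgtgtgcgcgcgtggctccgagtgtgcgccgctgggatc

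In windows of 250 bases before to 50 after the start, the NF-kB consensus was found in 23.5% of the 51 chemokine windows and in 8.46% of all 32851 windows of the table. AP-1 matches were found in 17.6% of chemokine windows against 7.81% of all windows, ISRE in 5.88% against 3.44%, and GAS in 5.88% against 8.3%. Ackr2, Ccl1, Ccl9, Ccl20, Ccl27a, Ccr1, Ccr3, Ccr6, Cxcl1, Cxcl2, Cxcl3 and Cxcl10 held an NF-kB match. Of the 20 genes with a window whose transcript rose in RC/RC kidneys (below), 4 were among these 12 (Ccl9, Ccr1, Cxcl2 and Cxcl10). A match describes letters in the window and was not read as a binding site.

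Scaled for gene length, the family was led by a few ligands not restricted to leukocytes. In WT kidneys Cx3cl1 averaged 32.7 CPM per kb, Cxcl12 31.4, Cxcl14 24.7, the scavenging receptor Ackr3 13.3, Cxcl16 11.8 and Ccl27a 10.6, while Ccl2 averaged 0.408 and the neutrophil attractants Cxcl2 and Cxcl5 0.0569 and 0.0513. Cx3cl1 (fractalkine) is a membrane-anchored chemokine of endothelium and tubular cells, Cxcl12 keeps Cxcr4-bearing cells in tissue, and Cxcl14 is made by epithelia and stroma. In RC/RC kidneys Cxcl14 came first on the same per-length scale (78.9), ahead of Cx3cl1 (69.5) and Cxcl12 (68.1) on that scale. With RC/RC mice spread from 84.5 to 231 CPM for Cxcl14 alone, the order of these 3 was not distinguished. Among the signaling receptors the highest per-length level was that of Cxcr4 in WT (3.20) and in RC/RC (5.41), followed in RC/RC by Cx3cr1 (4.65) and Ccr2 (3.63). At the low end, 16 of the 59 genes passed the filter on low counts in no comparison, and 3 of them (Ccl21b, Ccl26 and Ccl27b) had no read in any mouse.

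**Figure D1:**
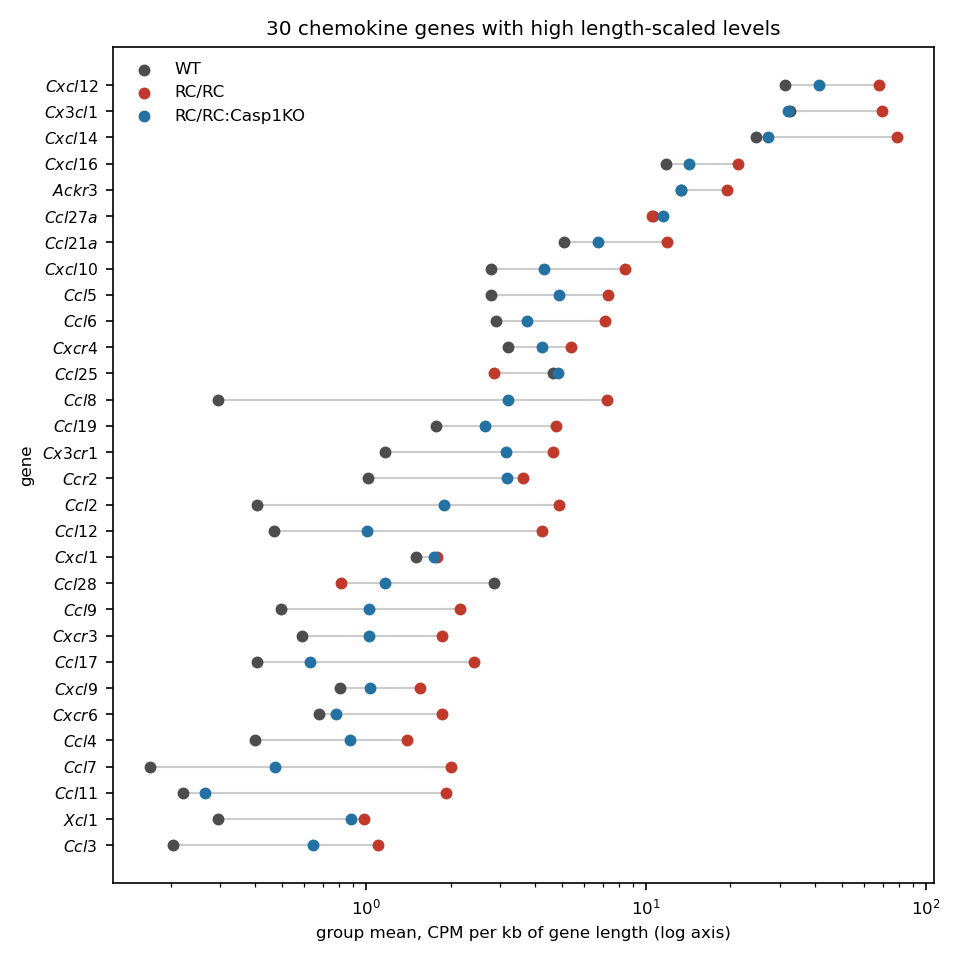
Group mean levels of 30 chemokine genes with high length-scaled levels, in CPM per kb of gene length on a log axis; points are the means of 4 mice in WT, RC/RC and RC/RC:Casp1KO. Cxcl12, Cx3cl1 and Cxcl14 lie above 24 CPM per kb in all 3 groups, and the RC/RC point lies to the right for most genes, with Ccl25, Ccl27a and Ccl28 as exceptions.

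To see what the cystic mutation does to the family, RC/RC mice were compared with WT mice. Chemokine transcripts rose broadly in RC/RC kidneys: 26 genes were higher at an adjusted p under 0.05, and none was lower, out of 42 that passed the filter on low counts. Over all 15243 genes tested, 9.76% were higher and 3.18% were lower by the same rule. The median log2 fold change was 1.62 over the 42 chemokine genes and -0.02 over all genes tested. The filter keeps a gene that is counted in only 1 of the groups, so a gene that is low in WT enters because it is high in RC/RC; with 10 counts required in every mouse, 24 chemokine genes were tested and 16 were higher. In 27 of the 42 all RC/RC mice lay above all WT mice, against 12.6% of all genes tested. In RNA of kidney tissue, more cells of a type and more RNA per cell cannot be told apart.

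**Figure D2:**
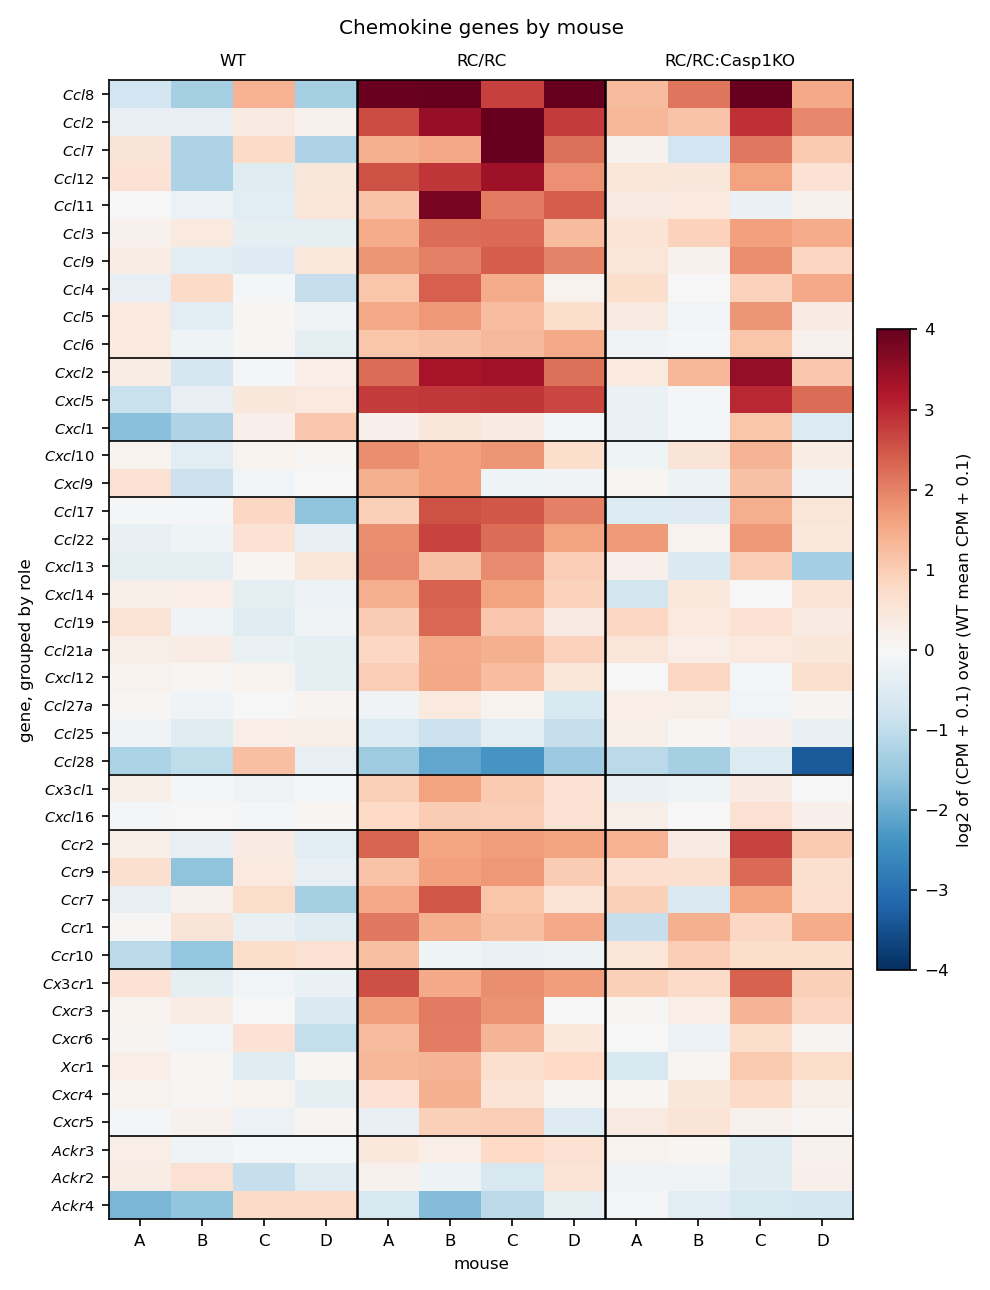
Log2 ratio of each mouse's CPM to the WT mean (0.1 CPM added to both, colors stop at 4 on this scale) for the chemokine genes tested in RC/RC against WT (all but 1 shown), in rows grouped by role, with mice in columns. The RC/RC columns are red for most ligands and receptors, and RC/RC:Casp1KO mouse C is redder than the other 3 mice of its group.

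Inflammatory CC ligands, which draw monocytes, T cells and eosinophils, rose in most of the members tested. Of the 12, 10 were tested and 8 were called higher, against 9.76% of all genes, with a median log2 fold change of 2.73 over the tested ones. Of these 10, 7 had fewer than 10 reads in at least 1 mouse, and the 3 with 10 counts in every mouse (Ccl5, Ccl6 and Ccl9) were all called, with a median of 1.40. Ccl2 (MCP-1, chr11:82035571-82037453), the main ligand of Ccr2, stood at 0.334, 0.333, 0.604 and 0.518 CPM in WT, 3.25, 5.98, 8.48 and 3.69 in RC/RC and 1.27, 1.11, 4.00 and 1.95 in RC/RC:Casp1KO. Every RC/RC and RC/RC:Casp1KO mouse lay above the highest WT mouse, and RC/RC:Casp1KO mouse C overlapped the RC/RC range. The RC/RC mean was 11.8-fold that of WT (3.56 ± 0.40; adjusted p = 0.000806 in edgeR's test).

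Ccl12, a second Ccr2 ligand of the mouse, stood at 0.429, 0.0476, 0.151 and 0.377 CPM in WT and 1.95, 2.44, 3.60 and 1.16 in RC/RC, with no overlap (3.14 ± 0.56; adjusted p = 0.00711 in edgeR's test). Ccl8, another monocyte attractant, was nearly absent from 3 of 4 WT kidneys (1, 0, 11 and 0 reads) and counted 98, 98, 29 and 101 reads in RC/RC and 9, 26, 97 and 13 in RC/RC:Casp1KO. WT mouse C held nearly all of the WT reads, yet stayed below every RC/RC mouse, and the difference was the largest of the tested chemokine genes (4.61 ± 0.88; adjusted p = 0.00943 in edgeR's test). Without WT mouse C it was 7.40. Ccl11 (eotaxin), which attracts eosinophils through Ccr3, stood at 0.238, 0.190, 0.151 and 0.377 CPM in WT, 0.650, 4.66, 1.34 and 1.72 in RC/RC and 0.333, 0.344, 0.184 and 0.286 in RC/RC:Casp1KO. RC/RC mouse B was the highest, RC/RC mouse A still exceeded every WT and RC/RC:Casp1KO mouse, and RC/RC differed from WT by 3.08 ± 0.64 (adjusted p = 0.0138 in edgeR's test), or by 2.31 without RC/RC mouse B.

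The Ccr1 ligands Ccl9, Ccl6, Ccl5 and Ccl3 rose too. Ccl9 stood at 1.86, 1.05, 1.01 and 2.03 CPM in WT and 5.24, 6.35, 8.38 and 6.13 in RC/RC, a 4.37-fold difference (adjusted p = 0.00211 in edgeR's test). Ccl6, a myeloid attractant, went from 4.18 ± 1.01 to 10.3 ± 1.31 (SD, n = 4 mice each; adjusted p = 0.00367 in edgeR's test), and its span holds an overlapping transcript on the other strand. Ccl5 (RANTES), a product of T and NK cells and macrophages, went from 1.87 ± 0.462 to 4.89 ± 1.43, and Ccl3 from 0.156 ± 0.0703 to 0.841 ± 0.324. In all 4 genes the WT and RC/RC mice did not overlap, and each was called in edgeR's test. Ccl7, a Ccr2 ligand beside Ccl2, had 5, 0, 6 and 0 reads in WT and 14, 11, 81 and 23 in RC/RC, and its difference of 3.52 ± 1.03 fell just short (adjusted p = 0.0521). Its RC/RC mean rested mostly on mouse C. Ccl4 did not pass either (1.76 ± 0.63; adjusted p = 0.0991).

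Among the 5 CXC ligands listed as neutrophil attractants, Cxcl5 and Cxcl2 rose and Cxcl1 did not pass the test. Cxcl5 had 0, 1, 3 and 3 reads in WT, 31, 23, 23 and 25 in RC/RC and 1, 2, 30 and 16 in RC/RC:Casp1KO, whereas Cxcl2 had 2, 0, 1 and 2 reads in WT, 17, 28, 29 and 15 in RC/RC and 2, 8, 38 and 5 in RC/RC:Casp1KO. Every WT mouse had at most 3 reads of either gene and lay below every RC/RC mouse, and RC/RC:Casp1KO mouse C reached the RC/RC range for both. The differences from WT were 3.71 ± 0.53 for Cxcl5 (adjusted p = 0.00262) and 4.03 ± 0.63 for Cxcl2 (adjusted p = 0.00377) in edgeR's test. Cxcl1, whose promoter carries the same NF-kB stretch as that of Cxcl2 in the sequences above, stood at 0.381, 0.571, 1.66 and 3.11 CPM in WT, 1.64, 2.01, 1.82 and 1.33 in RC/RC and 1.16, 1.34, 3.22 and 0.953 in RC/RC:Casp1KO. Its WT mice spread on both sides of the RC/RC range, and it gave 0.24 ± 0.57 (adjusted p = 0.806). Cxcl3, with the same stretch, had 1 read in WT, 10 in RC/RC and 2 in RC/RC:Casp1KO over 4 mice each, and was not tested. The neutrophil receptor Cxcr2 had 3, 1, 1 and 4 reads in WT and 5, 1, 5 and 12 in RC/RC, too few for the test.

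Cxcl9 and Cxcl10 are interferon-induced and recruit T cells through Cxcr3. Cxcl10 stood at 3.38, 2.29, 3.42 and 3.16 CPM in WT, 11.5, 9.74, 10.6 and 5.02 in RC/RC and 2.72, 4.47, 8.01 and 3.77 in RC/RC:Casp1KO. All RC/RC mice were above WT, RC/RC mouse D was the lowest of them, and the difference was 1.58 ± 0.27 (adjusted p = 0.00607 in edgeR's test). Cxcl10 lies wholly inside the span of Art3 on the other strand, at 3.80 CPM, and whether the counting used strand is not stated. Cxcl9, whose promoter window held an AP-1 match but no ISRE, was high in RC/RC mice A and B only (6.35, 7.52, 2.04 and 2.10 CPM, against 3.62, 1.24, 2.16 and 2.31 in WT), and its difference of 0.95 ± 0.49 did not pass (adjusted p = 0.235). Their neighbour Cxcl11, left out by the rule, had 4, 7, 10 and 14 reads in WT, 87, 40, 32 and 42 in RC/RC and 15, 23, 54 and 24 in RC/RC:Casp1KO.

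Lymphoid, dendritic and homeostatic ligands were mixed. Of 15, 10 were tested, 6 were called higher and none lower, against 9.76% higher and 3.18% lower over all genes. With 10 counts required in every mouse, 7 were tested and 3 were called higher. Cxcl14 (chr13:56288647-56296551) stood at 52.9, 53.8, 35.1 and 38.2 CPM in WT, 123, 231, 136 and 84.5 in RC/RC and 27.3, 59.9, 45.7 and 65.8 in RC/RC:Casp1KO. RC/RC mice were all above both other groups, which overlapped each other, and RC/RC was 3.20-fold WT (1.68 ± 0.29; adjusted p = 0.00616 in edgeR's test). Cxcl12 (chr6:117168535-117181367) stood at 196, 181, 196 and 134 CPM in WT, 349.8, 519.6, 416 and 248 in RC/RC and 176, 313, 169 and 276 in RC/RC:Casp1KO, with RC/RC above all WT mice and RC/RC:Casp1KO mice B and D within the RC/RC range. Its increase was 1.11 ± 0.23 (adjusted p = 0.0125 in edgeR's test).

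Ccl21a, a Ccr7 ligand of lymphatic endothelium, stood at 5.19, 5.43, 3.67 and 3.44 CPM in WT, 7.95, 12.9, 11.9 and 8.57 in RC/RC and 6.21, 5.35, 5.80 and 6.05 in RC/RC:Casp1KO, and RC/RC did not overlap either group (1.22 ± 0.23 against WT; adjusted p = 0.00901 in edgeR's test). Near-identical copies of Ccl21a exist (Ccl21b, 97.5% identical), so its reads may be shared, although the copies in the table hold 0 reads. The Ccr4 ligands Ccl22 and Ccl17 of dendritic cells rose from 0.437 ± 0.180 to 2.30 ± 0.814 CPM and from 0.208 ± 0.186 to 1.24 ± 0.548 (SD, n = 4 mice each; adjusted p = 0.00421 and 0.0402), and the B cell attractant Cxcl13 from 0.277 ± 0.111 to 0.993 ± 0.350 (adjusted p = 0.0182). Ccl19, the other Ccr7 ligand, has several near copies and gave 1.42 ± 0.44 (adjusted p = 0.0653). The epithelial ligand Ccl27a, which also has near copies, gave a value close to 0 (-0.01 ± 0.20; adjusted p = 0.977).

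Ccl27a, Ccl28 and Ccl25 were the 3 tested ligands with values below 0. Ccl28, a ligand of mucosal epithelia, stood at 4.38, 5.24, 24.7 and 8.48 CPM in WT, 3.90, 2.44, 1.99 and 3.86 in RC/RC and 4.99, 4.16, 7.37 and 0.953 in RC/RC:Casp1KO. All RC/RC mice were below all WT mice, of which mouse C was far above the rest, and the difference of -1.80 ± 0.54 did not pass (adjusted p = 0.0585). Ccl25, which attracts Ccr9-bearing lymphocytes to the gut, stood at 4.62, 3.62, 6.19 and 6.12 CPM in WT, 3.52, 2.81, 3.70 and 2.66 in RC/RC and 6.04, 5.27, 5.89 and 4.20 in RC/RC:Casp1KO. The RC/RC mice lay at the low end, where WT mouse B overlapped RC/RC mouse C, and the difference from WT was -0.70 ± 0.23 (adjusted p = 0.0826 in edgeR's test). Ccl25 shares 405 bases of transcript sequence with its neighbour Elavl1, so its reads are uncertain.

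Cx3cl1 and Cxcl16, made as membrane proteins that hold leukocytes before they are shed, both rose. Cx3cl1 (chr8:94772009-94782423), the ligand of Cx3cr1, stood at 128, 103, 97.0 and 104 CPM in WT, 207, 329, 223 and 161 in RC/RC and 90.9, 95.3, 134 and 106 in RC/RC:Casp1KO. RC/RC mice were above both other groups, whose ranges overlapped, and were 2.13-fold WT (1.09 ± 0.21; adjusted p = 0.00978 in edgeR's test). Cxcl16 (chr11:70453983-70459984), the ligand of Cxcr6, stood at 31.0, 31.9, 30.7 and 33.2 CPM in WT, 55.4, 64.1, 62.4 and 48.7 in RC/RC and 37.0, 31.3, 48.8 and 36.5 in RC/RC:Casp1KO. All RC/RC mice were above the WT mice, and RC/RC:Casp1KO mouse C just exceeded RC/RC mouse D (0.86 ± 0.11 against WT; adjusted p = 0.00145 in edgeR's test). In transcripts of a later build Cxcl16 shares up to 1757 bases with Med11 (14.9 CPM) and 1669 with its neighbour Zmynd15 on the other strand (16.2 CPM), so its reads are uncertain in every comparison.

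**Figure D3:**
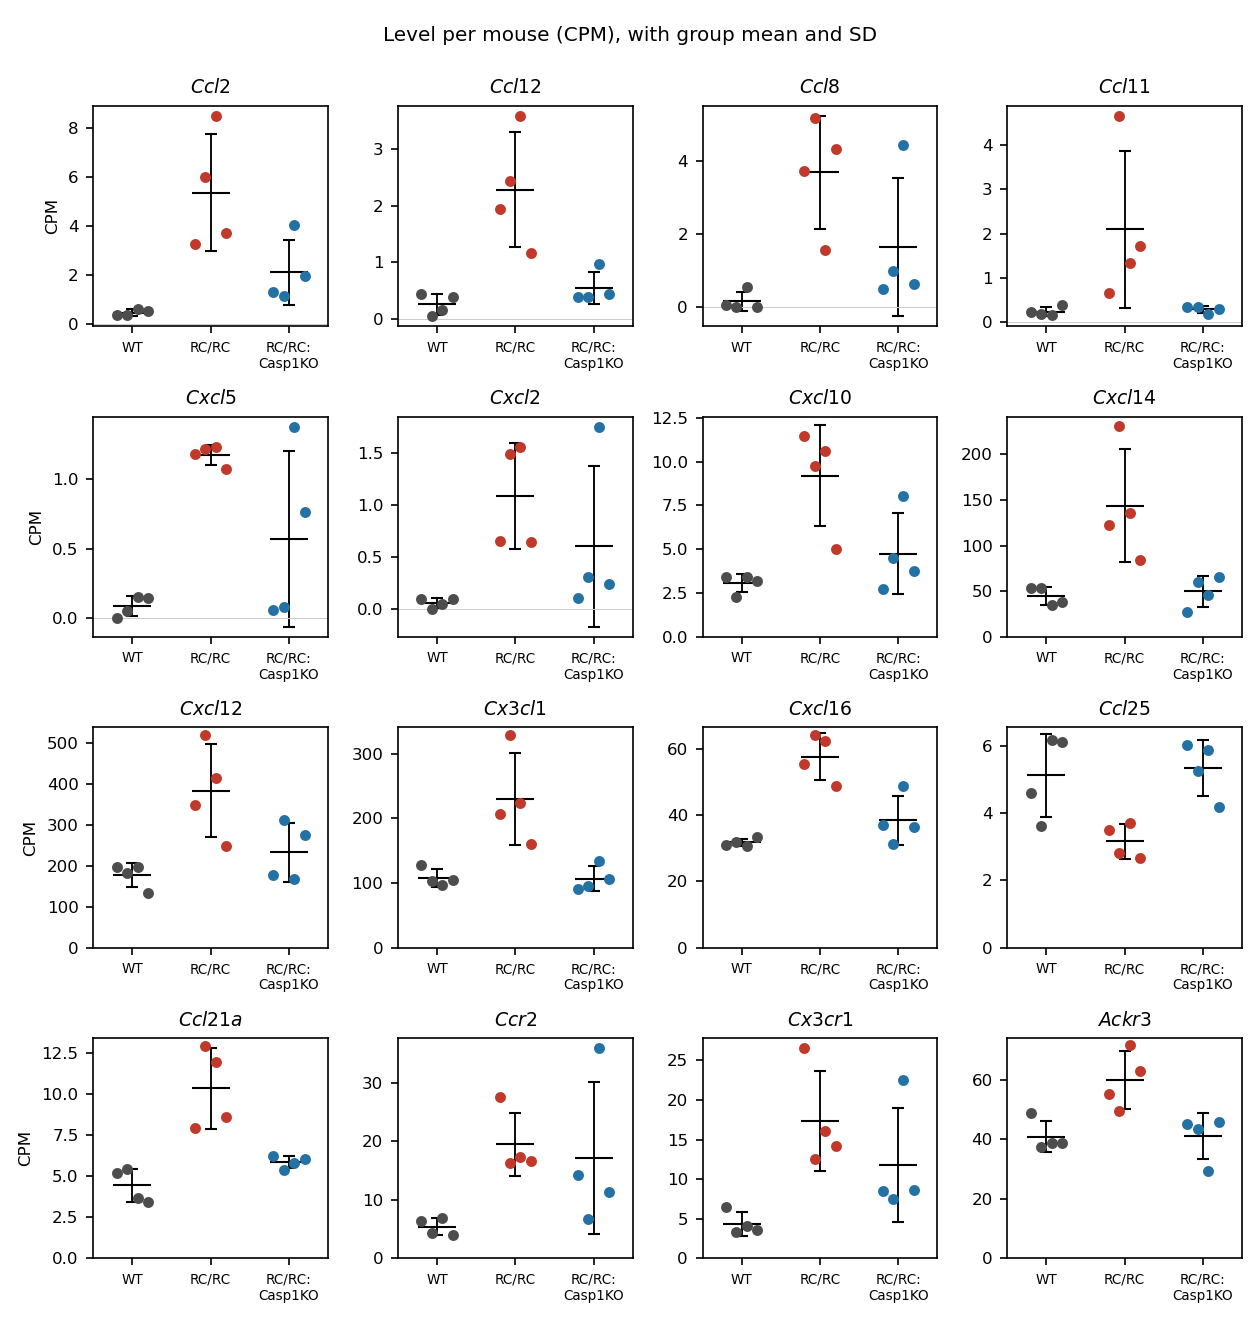
CPM of 16 named chemokine genes in each mouse (points) with the group mean and SD (bars, n = 4) in WT, RC/RC and RC/RC:Casp1KO. For Ccl11, Ccl12, Cxcl14 and Cx3cl1 the RC/RC mice are separate from both other groups, while for Ccr2 and Cx3cr1 RC/RC:Casp1KO mouse C lies at or above most RC/RC mice.

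Part of the receptors rose too. Of 22, 15 were tested and 7 were called higher, none lower, against 9.76% higher and 3.18% lower over all genes. With 10 counts required in every mouse, 10 were tested and 7 were called higher. Ccr2, which marks inflammatory monocytes, stood at 6.43, 4.33, 6.89 and 4.05 CPM in WT, 27.5, 16.4, 17.3 and 16.7 in RC/RC and 14.3, 6.80, 36.0 and 11.3 in RC/RC:Casp1KO. RC/RC was above WT in every mouse (1.84 ± 0.24; adjusted p = 0.00185 in edgeR's test), and the highest of all 12 mice was RC/RC:Casp1KO mouse C. Cx3cr1, carried by kidney macrophages, stood at 6.53, 3.29, 4.02 and 3.58 CPM in WT, 26.6, 12.5, 16.1 and 14.2 in RC/RC and 8.48, 7.52, 22.5 and 8.58 in RC/RC:Casp1KO, and no RC/RC or RC/RC:Casp1KO mouse fell into the WT range (1.99 ± 0.30 for RC/RC; adjusted p = 0.00315 in edgeR's test). The span annotated for Cx3cr1 also holds other genes, among them Wdr48 and Gorasp1, so reads there may be shared.

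Ccr1, a receptor of Ccl3, Ccl5, Ccl6 and Ccl9 on myeloid cells, went from 0.829 ± 0.299 to 2.71 ± 0.817 CPM (SD, n = 4 mice each; adjusted p = 0.0101 in edgeR's test). Xcr1, a marker of cross-presenting dendritic cells, went from 1.09 ± 0.243 to 2.39 ± 0.610 (adjusted p = 0.031), and Cxcr3 of T and NK cells from 1.02 ± 0.268 to 3.23 ± 1.54 (adjusted p = 0.038), where RC/RC mouse D overlapped WT. Cxcr6 gave 1.45 ± 0.42 (adjusted p = 0.0528) and Ccr7 1.75 ± 0.58 (adjusted p = 0.079), and neither passed; Cxcr6 lies inside Fyco1 on the other strand. Cxcr4 gave 0.76 ± 0.28 and the B cell receptor Cxcr5 0.46 ± 0.41, with adjusted p of 0.106 and 0.479. The atypical receptor Ackr3, which binds Cxcl12, stood at 48.7, 37.2, 38.6 and 38.9 CPM in WT, 55.2, 49.4, 71.8 and 62.9 in RC/RC and 45.1, 43.5, 29.5 and 45.8 in RC/RC:Casp1KO. It rose by the smallest amount of the 26 (0.55 ± 0.14; adjusted p = 0.0316), with RC/RC mouse B just above WT mouse A. Ackr4, which removes Ccl19, Ccl21 and Ccl25, had 3, 4, 27 and 29 reads in WT, mice A and B far below mice C and D, and it shares 981 bases of transcript with Acad11.

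Of the 26 calls, 21 held under every alternative in which the gene was tested. The filter of 10 counts in every mouse left 8 of these 21 untested (Ccl2, Ccl3, Ccl8, Ccl11, Ccl12, Ccl22, Cxcl2 and Cxcl5). The other 5 lost their call without some mice: Cxcl13 without WT mouse A or B or RC/RC mouse C, Xcr1 without WT mouse B, C or D or RC/RC mouse A or B, and Ccl17 without any mouse but WT mouse C and RC/RC mouse A. Ackr3 kept it only without WT mouse A or RC/RC mouse B, and Cxcr3 only without RC/RC mouse D. Xcr1 also missed the threshold with all 12 mice in 1 fit (adjusted p = 0.0519 in edgeR's test). The difference of Ccl17 was 2.54 ± 0.68, and 3.19 without WT mouse C.

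Chemokine genes sit in clusters, and neighbours were read together. With a distance of at most 250 kb between members and at least 3 members, 29 of the 59 genes fell into 6 clusters, of which 24 were tested and 18 were called higher, against 8 of 18 tested genes outside and 9.76% of all genes. With 10 counts required in every mouse these became 9 of 11 and 7 of 13, and the difference between genes inside and outside was not tested. The cluster on chromosome 11 from Ccl2 to Ccl1 (chr11:82035571-82305690) had 4 of 5 tested genes called, their median being 3.52 on the log2 scale, and none of the 5 had 10 counts in every mouse. The neighbouring cluster from Ccl5 to Ccl4 (chr11:83525778-83664683) also had 4 of 5 called, with a median of 1.76, and 3 of them had 10 counts in every mouse. In the cluster of neutrophil attractants on chromosome 5 (chr5:90759299-90905909) Cxcl1 lies between Cxcl5 and Cxcl2, which both rose. On chromosome 8 (chr8:94745590-94812035) Ccl22, Cx3cl1 and Ccl17, ligands of Ccr4 and Cx3cr1, all rose. In the receptor cluster on chromosome 9, which includes Ccr9, Cxcr6, Xcr1, Ccr1, Ccr3 and Ccr2, 6 genes were tested, 4 were called and all 6 were positive.

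To see what loss of Casp1 does in cystic kidneys, RC/RC:Casp1KO mice were compared with RC/RC mice. Most chemokine genes had lower values without Casp1, but few passed the test: of 42 tested, 6 were called lower (Cxcl16, Cxcl14, Ccl12, Ccl21a, Cx3cl1 and Ccl11) and 1 higher (Ccl25). Over all 15428 genes tested, 4.41% were lower and 7.23% were higher. The median log2 fold change was -0.78 over the chemokine genes and -0.03 over all genes, and 38 of 42 were negative. In 6 genes all RC/RC:Casp1KO mice lay below all RC/RC mice, against 8.65% of all genes tested. Under the filter of 10 counts in every mouse, 26 chemokine genes were tested, 4 were called lower and 1 higher. Ccl11 and Ccl12 were left untested there, with 6, 9, 4 and 6 and 7, 10, 21 and 9 reads in RC/RC:Casp1KO. The values over 42 genes include genes below that filter. The comparison of RC/RC:Casp1KO with RC/RC uses the same 4 RC/RC mice as the one against WT, so high or low RC/RC values enter both.

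Ccl11 differed most, by -2.84 ± 0.62 (7.16-fold lower; adjusted p = 0.0241 in edgeR's test), and by -2.06 without RC/RC mouse B, where it was still called. Ccl12 differed by -2.07 ± 0.44 (adjusted p = 0.0228), Cxcl14 by -1.54 ± 0.34 (adjusted p = 0.0253), Cx3cl1 by -1.12 ± 0.22 (adjusted p = 0.0171), Ccl21a by -0.83 ± 0.19 (adjusted p = 0.0272) and Cxcl16 by -0.60 ± 0.14 (adjusted p = 0.0335). All 6 are ligands, and for Cxcl14 and Cx3cl1 the RC/RC:Casp1KO mean (49.7 ± 17.1 and 107 ± 19.6 CPM, SD, n = 4) lay within the WT mice. Ccl25 was higher by 0.74 ± 0.20 (adjusted p = 0.0424), with no overlap between the groups. Ackr3 was lower in every RC/RC:Casp1KO mouse than in every RC/RC mouse, but did not pass (-0.56 ± 0.17; adjusted p = 0.0648). None of the 14 receptors tested was called, against 4.41% of all genes called lower and 7.23% higher. Of these 14, 13 had negative values, with a median of -0.56 on the log2 scale. A difference between ligands and receptors was not tested.

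Receptors of monocytes and macrophages did not pass the test. Ccr2 gave -0.20 ± 0.44 (adjusted p = 0.782), Cx3cr1 -0.57 ± 0.37 (adjusted p = 0.323) and Ccr1 -0.65 ± 0.47 (adjusted p = 0.368), all in edgeR's test. Among the ligands of these receptors, Ccl12 and Cx3cl1 were called lower, as given above. Ccl2 gave -1.37 ± 0.46 (adjusted p = 0.0795) and Ccl9 -1.10 ± 0.36 (adjusted p = 0.0757) in edgeR's test, and neither passed. Among neutrophil attractants Cxcl1 was at -0.04, Cxcl2 at -0.83 and Cxcl5 at -1.05 on the log2 scale, with adjusted p of 0.959, 0.464 and 0.347. Cxcr6 was the nearest receptor to the threshold (-1.26 ± 0.37; adjusted p = 0.0549).

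RC/RC:Casp1KO mouse C stood apart from the other 3 mice of its group. Of the 26 genes raised in RC/RC, it was the highest of its group in 20 and at or above the lowest RC/RC mouse in 18, against 2 for mouse A, 3 for mouse B and 5 for mouse D. Without mouse C, 18 chemokine genes were called lower and none higher, against 4.42% and 4.62% of 15569 genes, and 6 of the 7 calls named above were among them (not Ccl25). Newly past the threshold in that fit were, among others, Ccl6 (-1.31 ± 0.18; adjusted p = 0.00848), Ccl2 (-1.89 ± 0.40; adjusted p = 0.0277), Ccl8 (-2.37 ± 0.46; adjusted p = 0.0205) and Cx3cr1 (-1.08 ± 0.25; adjusted p = 0.0358), while Ccr2 gave -0.86 ± 0.28 (adjusted p = 0.09). Without RC/RC:Casp1KO mouse B or D or RC/RC mouse C, no chemokine gene was called, while 606, 440 and 438 genes of the whole table were, against 1797 with all 8 mice. Without RC/RC mouse B only Cx3cl1 and Ccl11 were called, and without RC/RC:Casp1KO mouse A only Cx3cl1 and Cxcl14. None of the 7 calls held under every alternative.

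**Figure D4:**
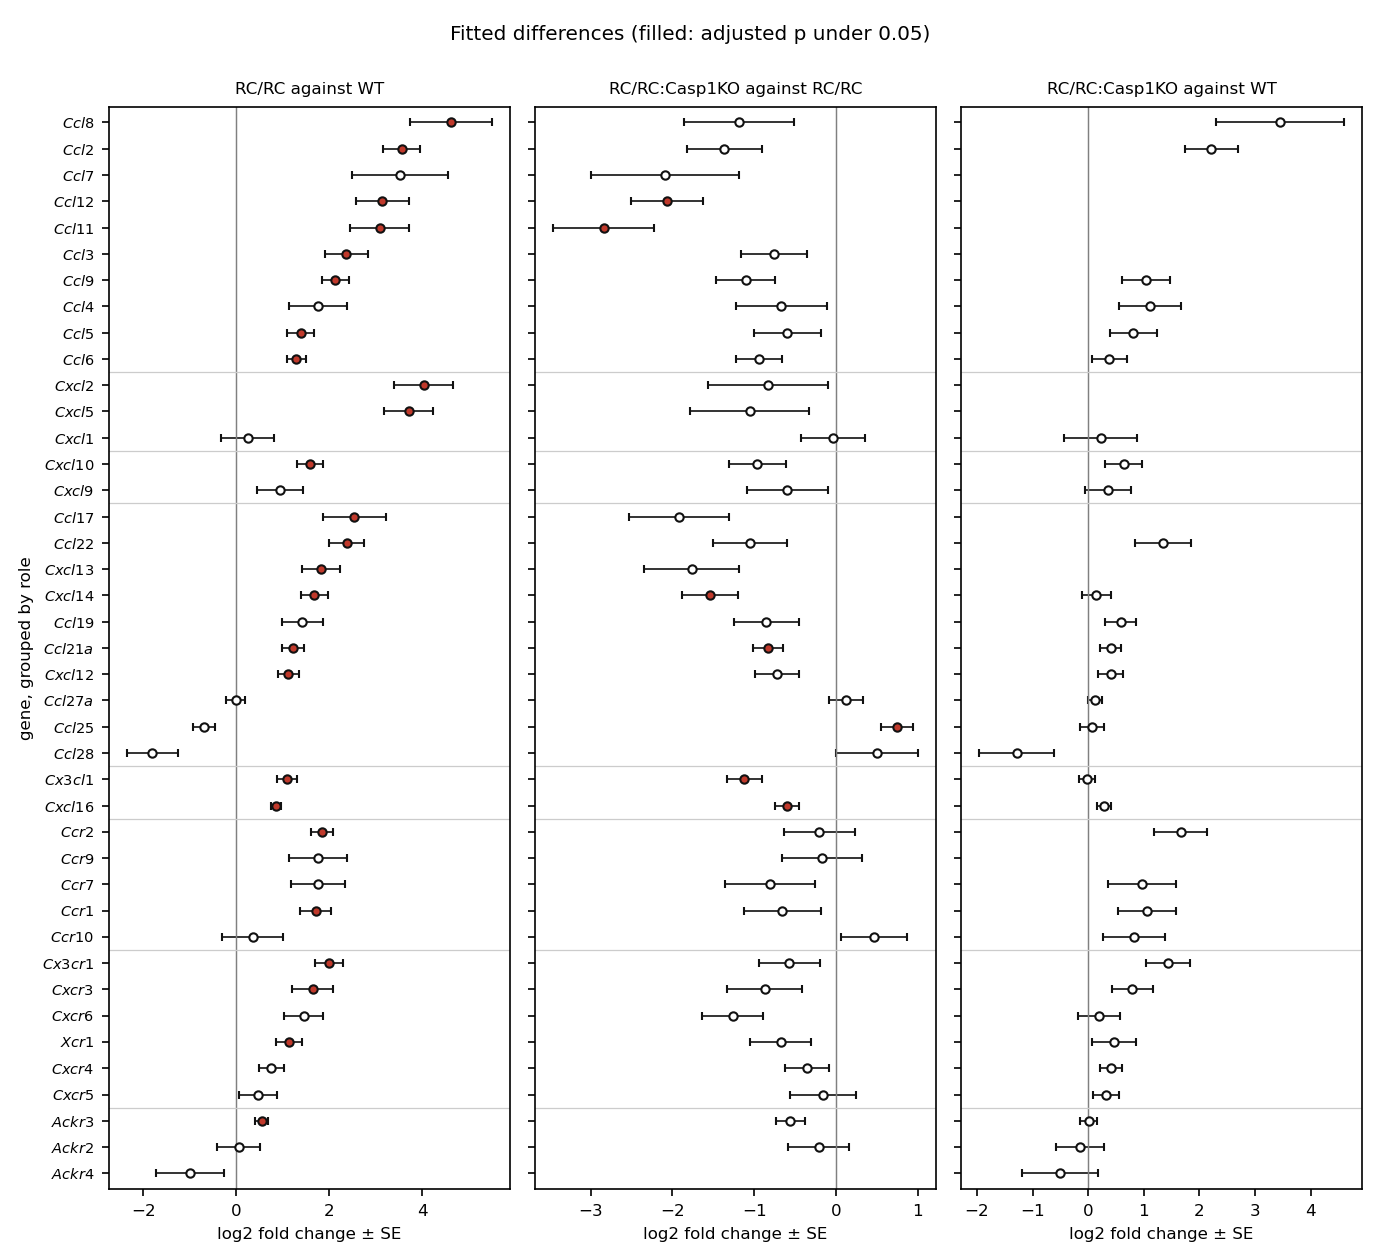
Log2 fold changes with SE for each comparison in edgeR's fits, for the chemokine genes tested in RC/RC against WT (all but 1 shown), grouped by role; filled points passed an adjusted p under 0.05 and absent points were not tested. Nearly all points lie right of 0 in RC/RC against WT and left of 0 in RC/RC:Casp1KO against RC/RC, where 7 are filled.

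RC/RC:Casp1KO mice were then compared with WT mice, to see how far the family stayed from the normal kidney. No chemokine gene was called among 33 tested, while 1.13% of all 15346 genes tested were higher and 0.893% lower. At an unadjusted p under 0.05 in edgeR's test, 7 were higher, among them Ccl2, Ccl8, Ccl9, Ccl22, Ccr2 and Cx3cr1, and none lower, while 11.8% of all genes were higher by that rule. DESeq2 called 5 of these higher, among them Ccl2, Ccl8, Ccr2 and Cx3cr1, and called 4.8% of all genes higher. The median log2 fold change was 0.42 over the 33 chemokine genes and 0.01 over all genes. Among the genes raised in RC/RC, Ccl3, Ccl11, Ccl12, Ccl17, Cxcl2, Cxcl5 and Cxcl13 had too few reads for the test here. Over 4 mice, RC/RC:Casp1KO and WT reads were 43 and 13 for Ccl3, 25 and 20 for Ccl11, and 47 and 21 for Ccl12. They were 28 and 17 for Ccl17, 53 and 5 for Cxcl2, 49 and 7 for Cxcl5, and 25 and 23 for Cxcl13. Mouse C of RC/RC:Casp1KO held 38 of the Cxcl2 reads and 30 of the Cxcl5 reads. Ccl2 came nearest to the threshold (2.21 ± 0.48; adjusted p = 0.0527 in edgeR's test), followed by Cx3cr1 (1.44 ± 0.40; adjusted p = 0.101) and Ccr2 (1.66 ± 0.48; adjusted p = 0.112). In 3 genes, Ccl2 and Cx3cr1 among them, every RC/RC:Casp1KO mouse lay above every WT mouse, against 7.41% of all genes tested. Cx3cl1 gave -0.01 ± 0.14 and Cxcl14 0.15 ± 0.26, the former with a 95% interval of -0.30 to 0.27. Both groups also enter the comparisons above, so the 3 sets of values are not independent.

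Of the genes with too few reads for the test, 8 had 1 to 3 reads over the 4 WT mice and more than 3 over the RC/RC mice, and none the reverse. These 8 were picked for few WT reads and more RC/RC reads, so a ratio above 1 follows from the choice and tests nothing. A count of all genes by the same rule is not given here. The interval, for counting error only, lay above 1 in 6 of the 8. It included 1 for Ccr3 (9 against 3 reads, interval 0.715 to 16.5) and Ccl1 (6 against 1, interval 0.695 to 264). Ccr4, the receptor of Ccl17 and Ccl22, had 2 reads over the 4 WT mice and 30 over the 4 RC/RC mice, a ratio of 14.3 at equal depth (exact 95% interval 3.64 to 124, for counting error only). Ccr6 had 3 and 29 reads (ratio 9.23, interval 2.86 to 47.4), and Cxcl17, a mucosal ligand, 3 and 42 (ratio 13.4, interval 4.27 to 67.5). For Ccl20, the ligand of Ccr6, RC/RC mice had 41, 28, 10 and 4 reads and WT mice 1, 0, 3 and 0. RC/RC mouse A held the most reads of Ccl20, Ccr6 and Cxcl17. Ccl1, Cxcl15, Cxcr1 and the 3 genes with no read never passed 3 reads in a mouse.

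Genes that act with the family were read next. Of 7 relatives that the names leave out, 5 were tested, and Pf4 (platelet factor 4, also made by macrophages) rose in RC/RC (1.34 ± 0.31; adjusted p = 0.0212 in edgeR's test) and was lower in RC/RC:Casp1KO (-1.15 ± 0.25; adjusted p = 0.0244). Cmklr1, the receptor of the attractant chemerin, was also lower in RC/RC:Casp1KO than in RC/RC (-1.11 ± 0.21; adjusted p = 0.0157), whereas the phosphatidylinositol transfer protein Pitpnm3 was higher (0.75 ± 0.20; adjusted p = 0.0407). Of 29 genes that carry chemokine receptor signals, all tested, 17 rose in RC/RC and none fell, with a median of 0.67 on the log2 scale, against 9.76% higher and 3.18% lower over all genes. They included Rac2 (1.93), Was (1.67), Vav1 (1.63) and Dock2 (1.51), which move the actin of leukocytes, and Gnai2 (0.69), the main inhibitory G protein subunit below these receptors. Between RC/RC:Casp1KO and RC/RC, 3 of the 29 were lower (Gnai2, Gnb1 and Grk5) and 1 higher (Adrbk2), against 4.41% lower and 7.23% higher over all genes. Of the 29, 25 had negative values, with a median of -0.34 against -0.03 over all genes. The difference between the list and all genes was not tested. Of 14 genes of chemokine-inducing cytokines, NF-kB factors and their regulators, 9 were tested against WT and 5 rose, against the same 9.76% of all genes: Il1b (1.51), Relb (1.29), Irf1 (1.00), Nfkb2 (0.89) and Nfkb1 (0.56). The NF-kB inhibitors of the list gave -0.36 ± 0.16 for Nfkbia (adjusted p = 0.176) and 0.52 ± 0.18 for Tnfaip3 (adjusted p = 0.0869). Of the list only Nfkb2 was called lower in RC/RC:Casp1KO (-0.65 ± 0.18; adjusted p = 0.049), and Il1b gave -0.06 ± 0.40 (adjusted p = 0.935). Il17a had no read in any mouse.

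Markers of the cells that make or carry these proteins moved beside them, and their part in the results was not tested. No marker was at 0 reads in all 12 mice. Ptprc, the pan-leukocyte CD45, stood at 17.0, 13.4, 16.5 and 15.9 CPM in WT, 35.4, 31.4, 22.9 and 24.8 in RC/RC and 23.8, 16.3, 59.0 and 24.9 in RC/RC:Casp1KO, and rose in RC/RC (0.87 ± 0.16; adjusted p = 0.00779 in edgeR's test). Of 8 monocyte and macrophage markers, 7 rose, against 9.76% of all genes. The exception was Csf1r, which had the highest CPM before scaling for length (0.50 ± 0.17; adjusted p = 0.0828 in edgeR's test). The summed level of the 8 markers was 147, 129, 136 and 126 CPM in WT, 365, 309, 275 and 260.2 in RC/RC and 152, 210.5, 316 and 197 in RC/RC:Casp1KO. RC/RC:Casp1KO mouse C lay in the RC/RC range here and was the highest of all 12 mice for Ptprc. Between RC/RC:Casp1KO and RC/RC, C1qa and C1qb were lower and Ptprc gave 0.10 ± 0.35 (adjusted p = 0.867).

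Lymphocyte and dendritic cell markers are set here against 9.76% of all genes called higher in RC/RC. Among T cell markers 5 of 6 rose in RC/RC (summed 6.77, 4.14, 4.17 and 3.91 CPM in WT, 14.3, 22.9, 16.8 and 9.65 in RC/RC and 8.76, 6.64, 19.1 and 8.39 in RC/RC:Casp1KO). Among B cell markers 4 of 4 rose (summed 2.57, 1.81, 3.37 and 1.79 CPM in WT, 7.23, 9.16, 6.23 and 6.34 in RC/RC and 5.16, 3.13, 6.31 and 4.00 in RC/RC:Casp1KO). Cd4 and Cd79a had the highest CPM of these lists before scaling for length. Of the B cell markers Cd79b was lower in RC/RC:Casp1KO than in RC/RC (-0.95 ± 0.26; adjusted p = 0.0456 in edgeR's test). Against WT, 3 B cell markers were tested and 1 was called higher in RC/RC:Casp1KO, where 1.13% of all genes were. Of the dendritic cell markers 2 of 4 rose (summed 23.3, 17.9, 22.6 and 21.0 CPM in WT, 35.5, 30.9, 30.1 and 28.0 in RC/RC and 26.5, 25.6, 46.9 and 30.1 in RC/RC:Casp1KO; Zbtb46 was the most abundant). Neutrophil markers were low throughout, with 3 of 5 tested against WT and none called (summed 2.86, 0.857, 4.28 and 2.73 CPM in WT, 4.05, 5.03, 6.92 and 4.42 in RC/RC and 2.44, 2.63, 7.13 and 2.53 in RC/RC:Casp1KO). Csf3r had the highest CPM of the neutrophil markers before scaling for length. The 2 NK cell markers never exceeded 0.918 CPM in sum and were not tested. Glycam1 and Madcam1, markers of the venules of lymph nodes, where Ccl19 and Ccl21a are abundant, summed to at most 0.529 CPM in any mouse.

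Fibroblast markers rose in RC/RC in 3 of 3, against 9.76% of all genes. In RC/RC:Casp1KO 2 of 3 were lower than in RC/RC, against 4.41% of all genes. The fibroblast sums were 128, 89.8, 102 and 120.2 CPM in WT, 427, 778, 432 and 349.8 in RC/RC and 131, 142, 274 and 194 in RC/RC:Casp1KO. Col1a1 had the highest CPM of this list before scaling for length. The matrix proteoglycan gene Dcn of this list stayed higher in RC/RC:Casp1KO than in WT (1.02 ± 0.13; adjusted p = 0.00799 in edgeR's test). None of 3 endothelial markers was called in any comparison by edgeR (summed 260.2, 253, 229 and 224 CPM in WT, 267, 362, 293 and 269 in RC/RC and 248, 227, 221 and 270.3 in RC/RC:Casp1KO). Kdr had the highest CPM of the endothelial markers before scaling for length. Of 8 epithelial markers of the nephron, Slc12a3 and Nphs1 were lower in RC/RC than WT, and Slc12a3 and Lrp2 were higher in RC/RC:Casp1KO than RC/RC. The summed epithelial level was 13270, 15440, 14290 and 16320 CPM in WT, 10040, 6954, 8930 and 11270 in RC/RC and 13810, 15450, 12630 and 13580 in RC/RC:Casp1KO. Slc34a1 had the highest CPM of this list before scaling for length. RC/RC mouse B, the highest mouse of its group for 12 of the 26 raised chemokine genes, had the highest fibroblast and T cell sums and the lowest epithelial sum.

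**Figure D5:**
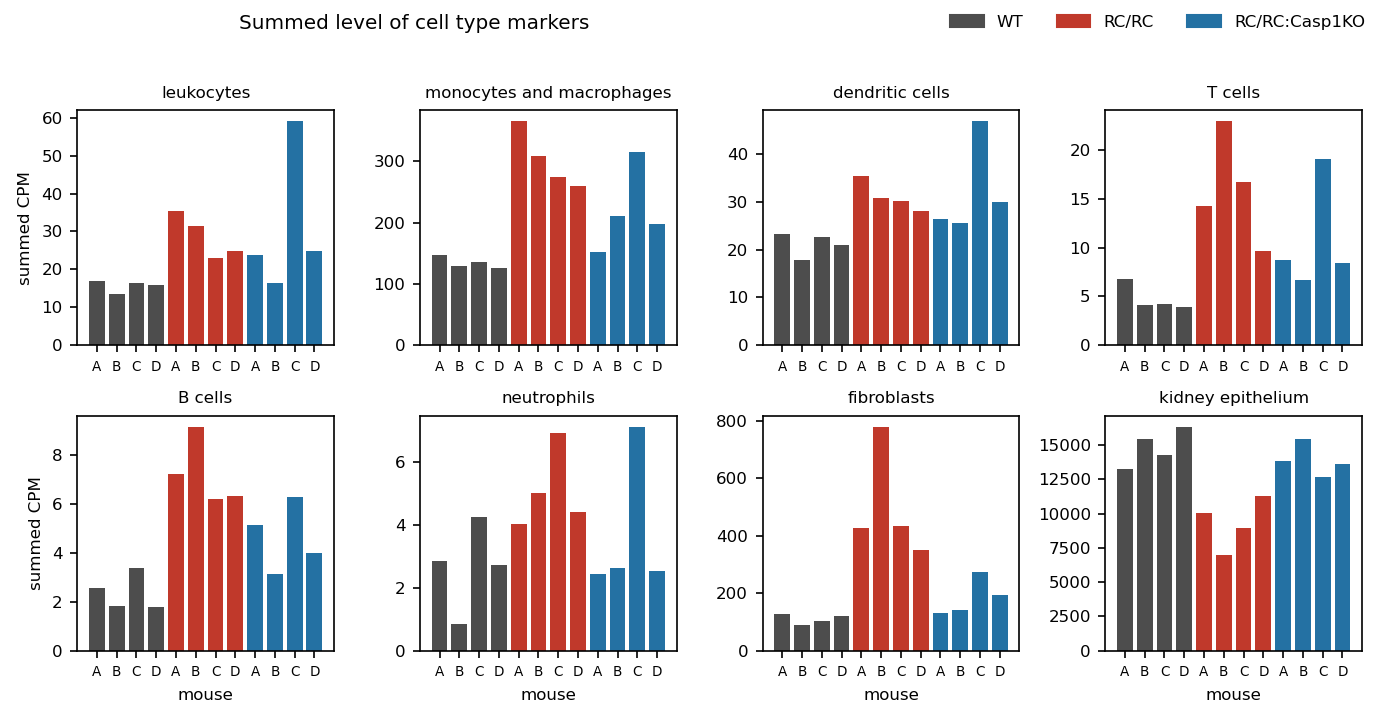
Summed CPM of marker genes for 8 cell types in each mouse (bars, mice A to D of each group in order; gray WT, red RC/RC, blue RC/RC:Casp1KO). RC/RC:Casp1KO mouse C has the highest Ptprc bar (59.0 CPM) of the 12 mice, and RC/RC mouse B the highest fibroblast bar.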

How the data were processed

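Total RNA of kidney from 12 mice was made into poly(A) libraries, which a sequencing company sequenced and processed. The authors deposited 1 table with raw read counts per gene and mouse, gene length and gene start and end; the submitters' processing notes name CASAVA 1.8, STAR and mm10. The counting tool, the annotation and the use of strand are not given in the sources used here. Deposited FPKM columns, group means and the authors' own comparisons (fold changes and p-values) were not used. Column names give a mouse's group and number but not its sex.

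Counts were tested with edgeR 4.0.16 in R 4.3.3 (TMM factors, filterByExpr, quasi-likelihood test, 4 mice against 4, sexes together), with Benjamini-Hochberg adjustment over all genes tested; SE is the log2 fold change over the root of the F statistic. Scripts were tested on simulated data. CPM was scaled by the TMM factors of all 12 libraries. Levels of different chemokine genes were compared as CPM per kb, and the highest marker of a list was named by CPM. A gene was called at an adjusted p under 0.05. Replicates of 1 group differed by more than counting noise (chi-square per degree of freedom 15.7 to 128 over 18 pairs), so each mouse counted as 1 sample. The depth was 18019819 to 24869454 reads per mouse, and the filter left genes with few reads untested.

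Alternatives were DESeq2 1.42.0, RLE factors, library size alone, looser and stricter filters, all 12 mice in 1 fit, each mouse left out and a threshold of 0.1. Near copies were sought with BLAST 2.17.0 in transcripts of a later build (at least 95% identity over 300 bases), and promoters came from RefSeq. Genes named in full were those called in any comparison, the 2 with the highest length-scaled level of each role, 10 receptors, and the 3 uncalled genes with the smallest p of each comparison. Ccl4, Ccl19, Ccl20, Ccl27a, Ccr4, Ccr6, Cxcl3, Cxcl17 and the clusters were added after their values were seen. The family, roles, marker and pathway lists were chosen with earlier results of these data known. Of the family 1 member, and of the markers 1, enter the counts and are not reported here.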

Additional observations from a re-analysis of the deposited data

Results flagged for a closer look

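In a group of 4 mice, a value was marked where 1 mouse stood far from the other 3: its gap to the nearest of them, over the group's range, passed Dixon's 95% critical value. Of 100 groups of the named chemokine genes with a mouse at 0.5 CPM or more, 14 were marked, and chance marks about 1 in 20. In RC/RC:Casp1KO, mouse C was the one marked in every case: it was highest for Cx3cr1 (22.5 CPM, next mouse 8.58), Ccl6 (9.16, next 4.67), Ccl5 (6.54, next 2.44), Cxcl9 (5.34, next 2.50), Ccl8 (4.47, next 0.993), Cxcl1 (3.22, next 1.34), Cxcl2 (1.75, next 0.305) and Ccl12 (0.967, next 0.429), and lowest for Ackr3 (29.5, next 43.5). This mouse also had the highest Ptprc (59.0 CPM), whose part in these values was not tested.

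In RC/RC, mouse A stood out for Ccr2 (27.5 CPM, next 17.3) and mouse C for Ccl7 (4.35, next 0.986). In WT, mouse C stood out for Ccl22 (0.704 CPM, next 0.381) and Ccl8 (0.553, next 0.0477), and mouse A for Ackr3 (48.7, next 38.9).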

How the results depend on the processing

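Of the 26 chemokine genes called higher in RC/RC than WT, 16 were called with at least 10 counts required in every mouse, where 24 were tested, and 21 to 24 were called again with 1 mouse left out, where 22 to 30 chemokine genes were called in all. DESeq2 called 32 (30 higher, with Ccl28 and Ccl25 lower) and 19.0% of all genes. Between RC/RC:Casp1KO and RC/RC, 7 were called and DESeq2 and a threshold of 0.1 each called 15 (DESeq2 20.8% of all genes), whereas leaving out 1 mouse gave 0 to 18. Between RC/RC:Casp1KO and WT none was called, DESeq2 called 5, and library size alone, all genes with 1 count, all 12 mice in 1 fit and a threshold of 0.1 each called 1 (Ccl2), as did 1 of the fits with a mouse left out (0 to 1). The causes were not tested. Library size alone moved the median log2 fold change of all genes in that comparison from 0.01 to 0.14 and that of the chemokine genes from 0.42 to 0.55. None of the named genes' called values changed sign under the alternatives run. No paired analysis was possible because the columns carry no replicate numbers. The filter on low counts left 16 genes untested, 3 of them without a read; with 1 count as the filter, 55 were tested in RC/RC against WT and 33 called (32 higher, and Ccl28 lower).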
